A study of Mus musculus with 12 samples.

Results

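The Kruppel-like factors Klf2, Klf4, Klf5, Klf6, Klf9, Klf10, Klf13 and Klf15 were followed in murine hip cartilage 4 h post injury. The 8 genes were chosen with earlier results of these data known. Their probes were found by gene symbol, without regard to case and without the use of any measured value. By these symbols the Illumina BeadChip carried 12 probes for the 8 genes among its 45281 probes, and a further probe stood under Tieg, an older name of Klf10. The normalized table held 9 of the 12, for 6 genes, among 21004 probes of 15297 genes. Klf6 and Klf9 stood in the normalized table under their older names Copeb and Bteb1. All mice were C57BL6 and were aged 4 to 6 weeks by the labels. The 12 arrays formed 4 groups of 3, namely control and injured hips of WT mice and of Mapk9 KO mice. By the methods, hips were injured by avulsion of the femoral epiphysis, and control tissue was frozen at once whereas injured tissue was first kept 4 h in serum-free culture. Control tissue was thus also avulsed, and the groups differ by the time in culture after it, so injury and culture cannot be told apart. Each replicate was a pool of hips from several mice, and the sources used here do not say how the Mapk9 allele was made or whether the WT mice were littermates.

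Kruppel-like factors are transcription factors that bind GC-rich and CACCC-type DNA elements through C2H2 zinc fingers at their carboxyl end, and they differ mainly in the parts outside the fingers. Klf2, Klf4, Klf5 and Klf6 carry activation domains, and several of them are known as early response genes. Klf9, Klf10 and Klf13 recruit the Sin3a corepressor. Klf15 and Klf9 are known as targets of the glucocorticoid receptor. Mapk9 encodes the stress-activated kinase JNK2, so the design compared the injury response of these factors in WT and Mapk9 KO mice.

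The brighter Mapk9 probe, which checks the genotype labels, read 10.05 to 10.90 log2 units on the 6 WT arrays and 8.69 to 9.28 on the 6 Mapk9 KO arrays. It was detected on all 12 arrays, so a signal remained in Mapk9 KO. It was lower there by limma in control hips (log2 fold change -1.57, SE 0.21, adjusted p = 0.0151) and in injured hips (-1.57, SE 0.18, adjusted p = 0.00485). A dimmer Mapk9 probe was detected on 3 of 3 WT control, 1 of 3 WT injured and 0 of 6 Mapk9 KO arrays. Between 16930 and 18969 probes per array were detected above the negative controls (detection p under 0.05). The arrays had median log2 values of 7.55 to 7.70, and the number of arrays limits the precision. Of 10 cartilage markers, 9 were in the table and all 9 were detected on 12 of 12 arrays. Skeletal muscle markers, all 14 of them in the table, were also present. Of these, 12 were called lower post injury in WT (8.25% of all genes) and 14 in Mapk9 KO (10.4%), by the rule given below. Their mean level was 10.92 to 12.59 in WT control and 8.03 to 10.14 in WT injured hips, and 12.68 to 13.05 in Mapk9 KO control and 8.54 to 9.78 in Mapk9 KO injured hips. In such tissue samples fewer cells of a type and less RNA per cell cannot be told apart.

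Of the 9 probes, 4 that lie in coding sequence are shown, to make plain which readings overlap and which come from the conserved zinc fingers. Klf4 had 3 probes in the table. Probe 1, which had the highest mean, and probe 2 shared a run of 17 bases, written in capitals, and probe 3 lay apart from them. These 2 probes therefore do not give independent readings of the coding sequence. The Klf5 probe and the weaker Klf6 probe, called probe 2, lie in the zinc finger coding region, the part that family members share most, and hold no capitals because that run is not in them.
Klf4 probe 1: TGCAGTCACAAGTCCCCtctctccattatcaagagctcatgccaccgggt
Klf4 probe 2: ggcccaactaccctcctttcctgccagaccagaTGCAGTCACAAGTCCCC
Klf5 probe: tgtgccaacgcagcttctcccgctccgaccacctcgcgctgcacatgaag
Klf6 probe 2: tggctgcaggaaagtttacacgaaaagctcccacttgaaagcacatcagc

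The fingers are similar among the family, so the probes of different members were compared with each other. Over the 32 pairs of probes from different members, the longest shared run was 8 bases. No genome build was named for the probe positions in the deposited files, and no coordinates are given for them.

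The DNA ahead of each gene is shown next, because several members moved together post injury. Upstream sequence of 250 bases, ending at the base before the annotated start, was taken from RefSeq (GRCm38.p6) and was found for 6 of the 8 genes. The windows of Klf5, a called member, and of Klf10 are not analysed here, so the motif counts leave them out. Klf2, Klf4 and Klf6 are shown as members that were higher post injury, and Klf9 as a member whose groups overlapped. Capitals mark matches on either strand to a MEF2 box, the GC box GGGCGG or its reverse CCGCCC, and the E-box CACGTG. Each sequence is written 5′ to 3′ on the strand of its gene.
Klf2 promoter, chr8:72318812-72319061, plus strand: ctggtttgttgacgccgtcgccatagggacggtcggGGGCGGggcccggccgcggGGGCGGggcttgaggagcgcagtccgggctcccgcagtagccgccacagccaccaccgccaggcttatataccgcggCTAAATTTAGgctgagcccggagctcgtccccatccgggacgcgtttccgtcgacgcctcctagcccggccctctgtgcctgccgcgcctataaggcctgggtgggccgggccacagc
Klf4 promoter, chr4:55532476-55532725, minus strand: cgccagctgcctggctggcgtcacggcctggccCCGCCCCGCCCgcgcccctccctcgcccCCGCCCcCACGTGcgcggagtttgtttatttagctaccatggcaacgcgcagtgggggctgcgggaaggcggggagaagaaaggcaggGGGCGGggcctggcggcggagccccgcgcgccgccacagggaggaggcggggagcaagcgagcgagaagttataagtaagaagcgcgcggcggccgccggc
Klf6 promoter, chr13:5861239-5861488, plus strand: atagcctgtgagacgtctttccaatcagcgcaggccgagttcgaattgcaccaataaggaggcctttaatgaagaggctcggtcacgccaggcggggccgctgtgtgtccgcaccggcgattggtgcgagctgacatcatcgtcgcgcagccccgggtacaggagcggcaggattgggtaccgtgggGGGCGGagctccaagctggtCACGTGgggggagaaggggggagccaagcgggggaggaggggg
Klf9 promoter, chr19:23140976-23141225, plus strand: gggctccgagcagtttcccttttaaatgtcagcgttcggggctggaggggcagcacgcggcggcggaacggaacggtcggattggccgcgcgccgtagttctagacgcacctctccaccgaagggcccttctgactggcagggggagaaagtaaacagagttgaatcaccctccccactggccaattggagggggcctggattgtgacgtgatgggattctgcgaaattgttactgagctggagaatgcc

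GC boxes, which Sp and Kruppel-like factors bind, were found in 5 of the 6 windows (Klf2, Klf4, Klf6, Klf13 and Klf15), against 32.7% of the 32851 promoters in the table. The Klf4 window held 4 of them, the Klf13 window 3 and the Klf2 window 2. GC content was 59.6% in the Klf9 window and 64.8% to 74% in the other 5, with a median of 52.4% over all promoters. The MEF2 box, the element of the factors downstream of the kinase ERK5, occurred in 0.508% of all promoters and in the Klf2 window alone among the members, from base -118 to base -109 before the start. The letters CACCC occurred in the windows of Klf2, Klf9, Klf13 and Klf15 (52% of all promoters) and CACGTG in those of Klf4, Klf6 and Klf15 (6.02%). The letters TGANTCA, a wider pattern that includes the AP-1 element TGA(C/G)TCA, occurred in the Klf9 window only (6.75% of all promoters). There they read TGAATCA, which is not the AP-1 element itself, and they overlapped the CACCC match. The Klf13 window held an overlap of GGGCGG with CACCC. TGACGTCA (1.55% of all promoters), AGAACA (16.1%) and the CArG box (1.47%) had no match in the 6 windows. A match is a description of these letters and not of a bound site.

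Post injury, 3 of the 6 measured members rose in WT cartilage (Klf4, Klf5 and Klf6) and 0 fell. A gene was called where at least 1 probe changed by more than 2-fold with a limma adjusted p under 0.05, and by this rule 8.37% of all genes were called higher and 8.25% lower. In Mapk9 KO cartilage 3 of 6 rose, again Klf4, Klf5 and Klf6, and 0 fell, where 10.6% of all genes were called higher and 10.4% lower. By the adjusted p alone, which 14.1% of genes passed upwards in WT and 20.6% in Mapk9 KO, Klf2 was added in both genotypes. The median change over the 6 members was 0.93 on the log2 scale in WT and 0.93 in Mapk9 KO, beside -0.02 and -0.04 over all genes. The members were chosen with earlier results of these data known, so these values describe them and do not test them as a set. The control and injured groups of 4 members, Klf2, Klf4, Klf5 and Klf6, did not overlap, with the injured hips higher, in WT (22.8% of genes) and in Mapk9 KO (26.7% of genes).

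**Figure D1:**
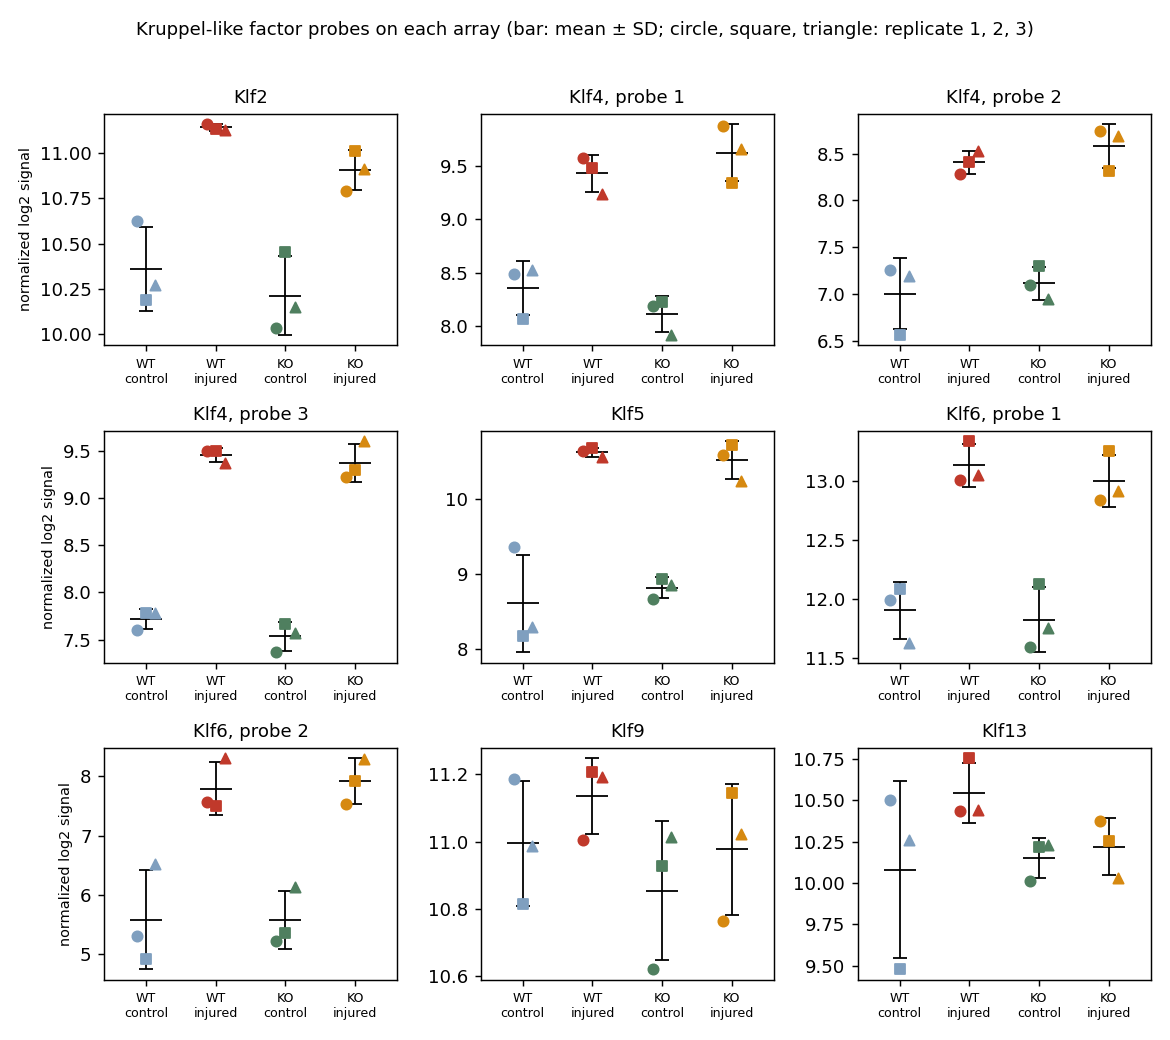
Normalized log2 signal (vertical axis, a separate range for each panel) of the 9 probes on 12 arrays. Circles, squares and triangles are replicates 1, 2 and 3, and bars give the mean ± SD of 3 arrays. Klf2, Klf4, Klf5 and Klf6 sit higher on every injured array than on every control array of the same genotype, whereas Klf9 and Klf13 overlap.

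Klf5, a factor best known from the intestinal epithelium, smooth muscle and the growth plate, had the largest change among the brightest probes of the members. Its probe read 9.36, 8.18 and 8.29 log2 units in WT control hips and 10.64, 10.68 and 10.56 in WT injured hips. All injured arrays were above all controls, and WT control replicate 1 stood above the other two controls. The means were 8.61 ± 0.65 (SD, n = 3) and 10.63 ± 0.06 (SD, n = 3), a 4.05-fold rise (log2 fold change 2.02, SE 0.30, limma adjusted p = 0.00102). The methods' t-test gave the same change an adjusted p of 0.0509 over all probes, just outside the threshold. In Mapk9 KO hips Klf5 read 8.67, 8.94 and 8.86 in controls and 10.59, 10.73 and 10.24 post injury. The Mapk9 KO controls lay within the range of the WT controls, and the change there was 1.70 (SE 0.19, limma adjusted p = 5.2e-05). A second Klf5 probe on the array was detected on 0 of 12 arrays, with signals of 102 to 142, and was outside the normalized table.

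Klf4, a factor of epithelial and vascular cells and of induced pluripotency, rose at all 3 probes in both genotypes. At probe 3, which lies apart from the overlapping pair, WT control hips read 7.60, 7.78 and 7.78 and WT injured hips 9.50, 9.50 and 9.37. Mapk9 KO control hips read 7.37, 7.66 and 7.57 and Mapk9 KO injured hips 9.23, 9.29 and 9.60. The gap between the control and injured arrays was wider here than the spread within any of the 4 groups. Probe 3 rose by 1.74 in WT (SE 0.19, limma adjusted p = 0.000157) and by 1.84 in Mapk9 KO (SE 0.18, adjusted p = 2.31e-05).

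Probe 1 of Klf4, the probe with the highest mean, read 8.49, 8.06 and 8.52 in WT control hips and 9.57, 9.48 and 9.24 in WT injured hips. In Mapk9 KO it read 8.19, 8.22 and 7.92 in controls and 9.87, 9.34 and 9.66 post injury. The injured arrays were again above the controls in both genotypes, by a change of 1.07 in WT (SE 0.21, limma adjusted p = 0.00507) and 1.51 in Mapk9 KO (SE 0.19, adjusted p = 0.000142). The WT change stood just above the fold limit and was 0.93 (adjusted p = 0.00996) without WT control replicate 2. Probe 2, which shares bases with probe 1, rose by 1.40 (SE 0.23) in WT and by 1.46 (SE 0.19) in Mapk9 KO. Over the 3 probes the WT change ranged from 1.07 to 1.74 in the same direction.

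Klf6, which is known as an immediate response gene of injured liver and vessel wall, rose at both probes. Probe 1 read 11.99, 12.08 and 11.62 in WT control hips and 13.01, 13.33 and 13.04 in WT injured hips. In Mapk9 KO it read 11.59, 12.13 and 11.75 in controls and 12.84, 13.25 and 12.91 post injury. The lowest injured array was above the highest control array in both genotypes. The change was 1.23 in WT (SE 0.21, limma adjusted p = 0.0024) and 1.18 in Mapk9 KO (SE 0.20, adjusted p = 0.000985).

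Probe 2 of Klf6 was near background in controls and was detected on 1 of 3 control arrays of each genotype, against 3 of 3 injured arrays of each. It read 5.31, 4.92 and 6.53 in WT control, 7.57, 7.50 and 8.30 in WT injured, 5.23, 5.36 and 6.14 in Mapk9 KO control and 7.53, 7.92 and 8.30 in Mapk9 KO injured hips. In each group replicate 3 was the highest array, and the groups did not overlap within a genotype. The changes of 2.20 in WT (SE 0.39, limma adjusted p = 0.00276) and 2.34 in Mapk9 KO (SE 0.27, adjusted p = 7.39e-05) rest on control signals mostly not above the negative controls.

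Klf2, the factor that laminar flow induces in endothelium and that keeps T cells quiescent, was higher post injury in both genotypes but below the fold limit. It read 10.62, 10.19 and 10.27 in WT control hips and 11.16, 11.13 and 11.13 in WT injured hips. The injured WT arrays were the closest together of any group, at 11.14 ± 0.02 (SD, n = 3), and lay above every control. In Mapk9 KO Klf2 read 10.04, 10.45 and 10.15 in controls and 10.79, 11.01 and 10.91 post injury. The change was 0.78 in WT (1.71-fold, SE 0.20, limma adjusted p = 0.0173) and 0.69 in Mapk9 KO (1.61-fold, SE 0.18, adjusted p = 0.0114). Of 10 endothelial markers, all in the table, 1 was called higher in WT (8.37% of all genes) and 0 in Mapk9 KO (10.6%). Of these markers 0 were called lower in either genotype (8.25% and 10.4% of all genes). Their mean level was 9.44 to 9.83 in WT control and 9.74 to 9.82 in WT injured hips, and 9.32 to 9.72 in Mapk9 KO control and 9.33 to 9.69 in Mapk9 KO injured hips. The part of endothelial cells in the Klf2 change was not tested.

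Klf9 and Klf13, both of the group that binds Sin3a, did not pass the test in either genotype. Klf9 read 11.19, 10.81 and 10.99 in WT control hips and 11.01, 11.21 and 11.19 in WT injured hips. In Mapk9 KO it read 10.62, 10.93 and 11.01 in controls and 10.76, 11.14 and 11.02 post injury. All 4 groups overlapped in range, and the change was 0.14 in WT (95% interval -0.30 to 0.58) and 0.12 in Mapk9 KO (95% interval -0.29 to 0.54). Both intervals leave out the 2-fold change that defined a call.

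Klf13, known for driving Ccl5 in T cells, read 10.50, 9.48 and 10.26 in WT control hips and 10.44, 10.75 and 10.44 in WT injured hips. WT control replicate 2 was the lowest of the 12 arrays for this gene, and the WT groups overlapped. In Mapk9 KO hips Klf13 read 10.01, 10.21 and 10.23 in controls and 10.37, 10.25 and 10.03 post injury, which also overlapped. Without WT control replicate 2 the WT change was 0.16 (limma adjusted p = 0.652), and without WT control replicate 1 it was 0.67 (adjusted p = 0.138). On all arrays the change was 0.46 in WT (95% interval -0.15 to 1.07, limma adjusted p = 0.253), which still held a 2-fold rise, and 0.07 in Mapk9 KO (95% interval -0.32 to 0.46).

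Klf10, the early gene induced by transforming growth factor beta, and Klf15, a factor of fasting metabolism and glucocorticoid response, gave no level. The Klf10 probe was detected on 0 of 12 arrays, with non-normalized signals of 107 to 145, and the probe under the older name Tieg was also detected on 0. The Klf15 probe was detected on 1 of 12 arrays, WT injured replicate 3, with signals of 122 to 184. These 2 members were not well above background in any group, and the arrays give no comparison for them.

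Replicates carried numbers that were shared across groups, so injured and control arrays were also set side by side by number. Klf2 was higher in the injured array of 6 of 6 pairs, by 0.54 to 0.94 log2 units. Klf4 was higher in 6 of 6 pairs at every probe, by 1.59 to 2.03 at probe 3 and by 0.72 to 1.74 at probe 1. Klf5 and Klf6 were also higher in 6 of 6 pairs, by 1.28 to 2.50 and, at probe 1 of Klf6, by 1.02 to 1.42. Klf9 was higher in 5 of 6 pairs (-0.18 to 0.39) and Klf13 in 4 of 6 (-0.20 to 1.27).

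**Figure D2:**
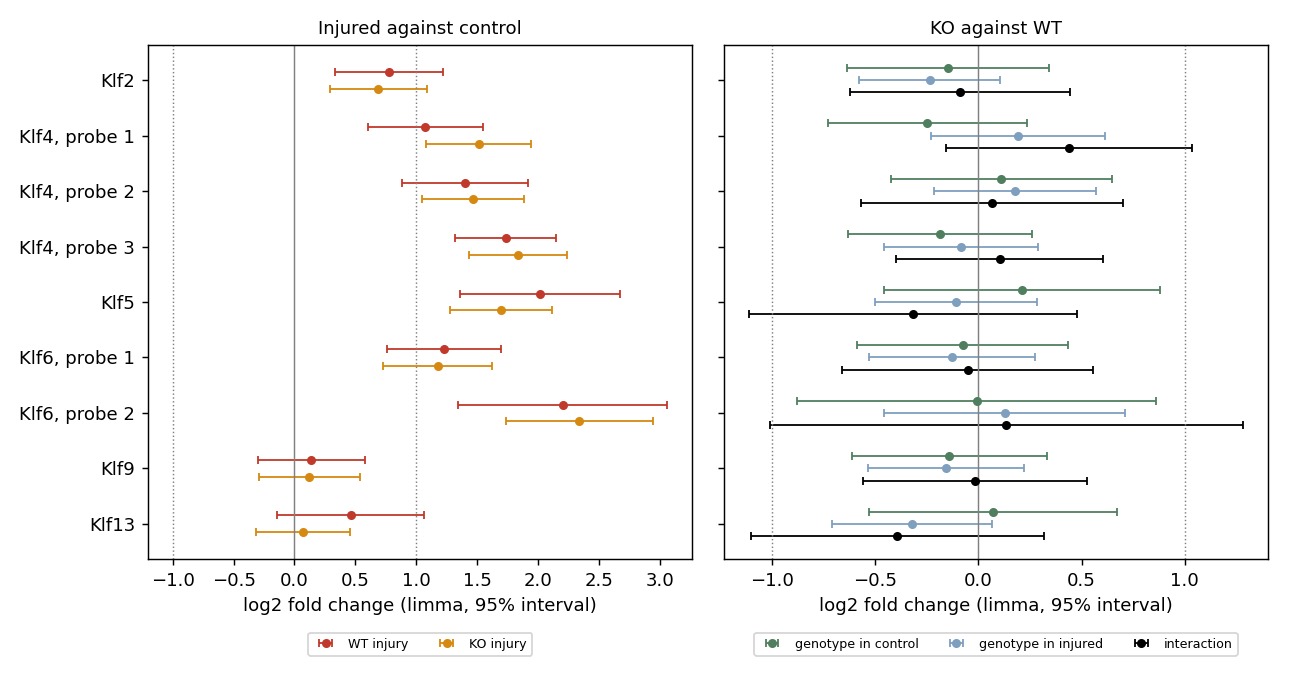
Log2 fold changes from limma with 95% intervals (horizontal axis) for each probe. The left panel gives injured against control in WT and in Mapk9 KO, the right panel Mapk9 KO against WT in control hips, in injured hips, and the difference between both injury changes. Dotted lines mark a 2-fold change. The point estimates of the injury changes of Klf4, Klf5 and Klf6 lie to the right of the dotted line at 1. The intervals of Klf4 probes 1 and 2 in WT and of Klf6 probe 1 in both genotypes cross that line. Every interval in the right panel includes 0.

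Mapk9 KO and WT cartilage were next compared within each condition. In control hips 0 of 6 members were called, where 0.15% of all genes were called in either direction (in 13.6% the groups did not overlap), and their limma adjusted p were 0.941 or higher. In injured hips 0 of 6 were called as well, where 0.203% of all genes were called, with adjusted p of 0.480 or higher. At an unadjusted p under 0.05, 0 of 6 members passed in either condition. The median difference of Mapk9 KO from WT over the members was -0.11 in control and -0.14 in injured hips, against -0.01 and -0.06 over all genes.

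The injured groups of 2 members did not overlap between genotypes, a state shared by 20.9% of all genes there. Klf2 was 10.90 ± 0.11 (SD, n = 3) in Mapk9 KO injured and 11.14 ± 0.02 (SD, n = 3) in WT injured hips, a difference of -0.24 (95% interval -0.58 to 0.11, limma adjusted p = 0.559). Klf13 was 10.22 ± 0.17 (SD, n = 3) in Mapk9 KO injured and 10.54 ± 0.18 (SD, n = 3) in WT injured hips, a difference of -0.32 (95% interval -0.71 to 0.07, limma adjusted p = 0.480). Neither difference passed the test. For the remaining members the ranges of the injured groups overlapped between genotypes.

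The difference between the injury changes of Mapk9 KO and WT was tested as an interaction over all 12 arrays. It was called in 0 of 6 members and in 0% of all genes, and 0 members had an unadjusted p under 0.05. The widest differences were 0.44 at Klf4 probe 1 (95% interval -0.16 to 1.04), -0.39 for Klf13 (95% interval -1.10 to 0.32) and -0.32 for Klf5 (95% interval -1.11 to 0.48). At the other probes of Klf4 the difference was 0.07 and 0.10. These values moved when a WT control array was left out: Klf13 was at -0.60 without WT control replicate 1 and -0.09 without replicate 2, and Klf5 at -0.69 without replicate 1, -0.10 without replicate 2 and -0.16 without replicate 3. The intervals of Klf4 probe 1, Klf5, Klf6 probe 2 and Klf13 still held a 2-fold difference, so these arrays cannot show whether the changes were alike to within that size.

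With both genotypes averaged over 12 arrays, Klf5 rose by 1.86 (SE 0.19, limma adjusted p = 1.82e-06) and Klf6 by 1.20 at probe 1 (SE 0.14, adjusted p = 9.26e-06). Klf4 rose by 1.29 at probe 1, 1.43 at probe 2 and 1.79 at probe 3. These 3 members were called, where 8.84% of all genes were called higher and 8.93% lower. Klf2 had a change of 0.73 (SE 0.12, limma adjusted p = 0.000221), under the fold limit (by adjusted p alone 24.4% of genes were higher), whereas Klf9 (0.13) and Klf13 (0.27) again did not pass.

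The rest of the family was read from 9 further Kruppel-like factor genes, of which 5 were in the table. In WT, 1 of the 5 rose and 2 fell (8.37% and 8.25% of all genes), and in Mapk9 KO 1 rose and 1 fell (10.6% and 10.4% of all genes). Klf7, the closest relative of Klf6, rose in WT by 1.01 at its brightest probe (SE 0.21, limma adjusted p = 0.00627) and by 1.43 at a further probe. In Mapk9 KO the same probes of Klf7 rose by 1.01 and 1.33. The remaining Klf7 probe, also detected on 12 of 12 arrays, read 0.76 in WT and 0.47 in Mapk9 KO and was not called. Klf1, the factor of red cell precursors, fell by 1.23 in WT (SE 0.20, limma adjusted p = 0.0020) and by 1.84 in Mapk9 KO. Klf3, a repressor that recruits CtBP, fell by 1.06 in WT at its second probe and read -0.95 at its brightest, and it was not called in Mapk9 KO. Of 8 red cell markers 6 were in the table, and 1 of those fell in each genotype, and whether red cell precursors took part in the Klf1 change was not tested.

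**Figure D3:**
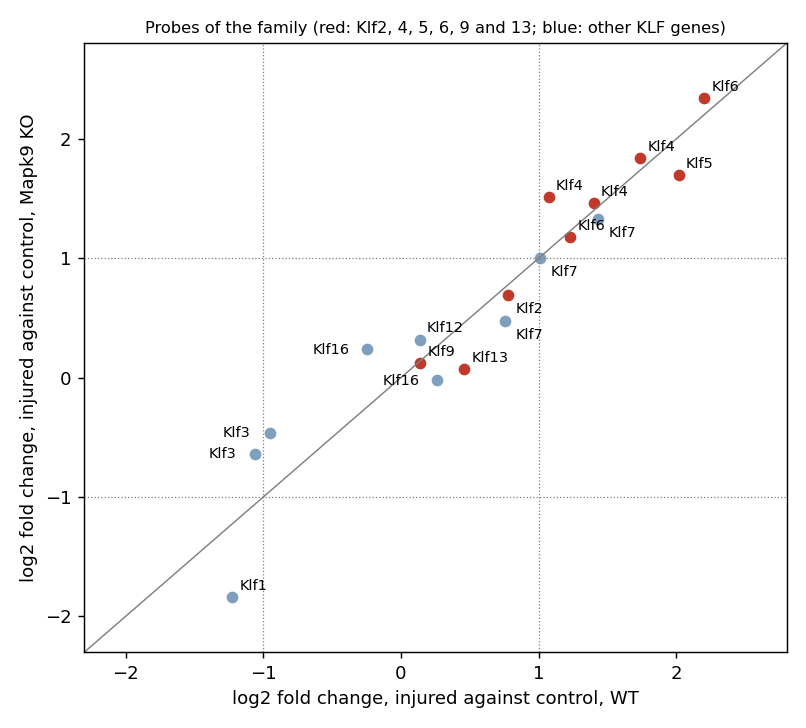
Log2 fold change of injured against control in WT (horizontal axis) and in Mapk9 KO (vertical axis) for each probe of the family in the table. Red points are the members and blue points other Kruppel-like factors, the diagonal marks equal change, and dotted lines mark a 2-fold change. Klf4, Klf5, Klf6 and 2 probes of Klf7 lie at the upper right, and Klf1 at the lower left.

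The related Sp factors bind the same GC boxes. Of the 7 measured Sp genes 0 rose and 2 fell in each genotype. Over all genes, for this and the next 2 lists, 8.37% were called higher and 8.25% lower in WT, and 10.6% and 10.4% in Mapk9 KO. The Sp genes that fell were Sp6 (-1.27 in WT, SE 0.25) and Sp7 (-1.14 in WT, SE 0.20), which is also a marker of osteoblasts. A dimmer Sp6 probe, detected on 8 arrays, read 0.11 in WT and -0.07 in Mapk9 KO and was not called. A dimmer Sp7 probe, detected on 12 of 12 arrays, read -0.18 in WT and 0.31 in Mapk9 KO and was not called. Of 8 genes of the ERK5 and MEF2 pathway, which is known to induce Klf2 and Klf4 in endothelium, 0 were called in WT. In Mapk9 KO 1 rose and 1 fell. The gene that rose was detected on 0 of 3 Mapk9 KO control arrays and read 0.98 in WT. The gene that fell was called at a dimmer probe (-1.30), while its brightest probe read -0.55 and was not called. Of 11 genes for proteins that bind or degrade Kruppel-like factors, 0 rose and 2 fell in WT, and 1 fell in Mapk9 KO. Those that fell in WT were Wwp1 (-1.56, SE 0.20), a ubiquitin ligase, and Kat2b (-1.37, SE 0.26), an acetyltransferase detected on 1 of 3 WT injured arrays. A dimmer Wwp1 probe, detected on 12 of 12 arrays, read -0.23 in WT and -0.28 in Mapk9 KO and was not called.

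Of the 5 measured glucocorticoid response genes 3 rose in each genotype, with a median change of 0.95 in WT and 0.97 in Mapk9 KO, where 8.37% and 10.6% of all genes were called higher. Per1 rose by 2.42 (SE 0.25) and Sgk1, an ion transport kinase, by 1.13 (SE 0.22) in WT. Tsc22d3, an anti-inflammatory gene, rose by 1.44 at its dimmer probe and had a change of 0.87 at its brighter probe. The list of clock genes, which shares Per1 with it, had 10 genes in the table, of which 3 rose and 1 fell in WT and 4 rose and 1 fell in Mapk9 KO, beside the same shares of all genes higher and 8.25% and 10.4% lower. Per2 rose by 1.50 (SE 0.23) in WT, and Tef was called lower at a probe detected on 1 of 3 WT control and 0 of 3 WT injured arrays, while its brighter probe read 0.11. Klf9, which both hormone and clock are known to regulate, did not pass beside them.

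Of the 22 measured genes known as targets of these factors, 2 rose and 2 fell in WT, where 8.37% of all genes were called higher and 8.25% lower. In Mapk9 KO 3 rose and 5 fell (10.6% and 10.4% of all genes), and the medians were 0.10 and -0.12. Cdkn1a, the cell cycle inhibitor that Klf4 and Klf6 are known to induce, rose by 1.75 in WT (SE 0.21, limma adjusted p = 0.0003) and by 1.79 in Mapk9 KO. Slc2a4, the insulin-regulated glucose transporter of muscle and fat, was detected on 3 of 3 WT control and 0 of 3 WT injured arrays. The brighter control signal gives a fall of at least 2.33-fold against the lowest detected signals (limma adjusted p = 0.0117, group means 7.06 and 5.26), beside the lower muscle markers given above. Tgfbr1, a receptor of transforming growth factor beta, fell by 1.50 (SE 0.28).

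Markers of the cells that hip tissue can hold also moved with injury. Over all genes, 8.37% were called higher and 8.25% lower in WT, and 10.6% and 10.4% in Mapk9 KO. Of the 9 cartilage markers 6 rose and 1 fell in WT and 7 rose in Mapk9 KO, and their mean level was 10.56 to 11.34 in WT control and 12.31 to 12.58 in WT injured hips (10.59 to 11.28 and 12.33 to 12.56 in Mapk9 KO). The marker that fell in WT was Col11a1, called at a dimmer probe (-1.26) while its brightest probe read 0.85, and the brightest probe rose by 1.23 in Mapk9 KO. Neutrophil markers rose in 4 of 7 genes in each genotype, from a mean level of 12.65 to 13.27 in WT control hips to 13.71 to 13.93 in WT injured hips (13.03 to 13.48 and 13.43 to 13.88 in Mapk9 KO). For Ltf and Mpo among them only dimmer probes were called, and their brightest probes read 0.39 and 0.67 in WT and -0.20 and 0.11 in Mapk9 KO. Macrophage markers fell in 5 of 8 genes in WT and 6 of 8 in Mapk9 KO, with 1 rising in each. Their mean level was 9.49 to 9.77 in WT control and 8.32 to 8.77 in WT injured hips (9.60 to 9.87 and 8.12 to 8.40 in Mapk9 KO). Fat cell markers fell in 2 of 5 genes in WT and 4 of 5 in Mapk9 KO, but only 1 of the 5 was detected on all 12 arrays. Cidec, among those that fell, was detected on 1 of 3 control and 0 of 3 injured arrays of each genotype. Osteoblast markers fell in 3 of 6 in each genotype, among them Bglap at a dim probe while its brightest read 0.33 in WT and -0.16 in Mapk9 KO. The part of all these cell types in the changes of Klf4, Klf5 and Klf6 was not tested.

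The genes whose profiles lay closest to the called members over the 12 arrays were found by the root mean square difference of mean-centred log2 values. For Klf5 they were Zswim4 (0.181), Edn1 (0.182), which encodes endothelin, and Selp (0.215), which encodes P-selectin, whereas the median over all genes was 1.03. For Klf4 they were Hsd17b7 and Arhgef2 (each 0.149) and 2310058J06Rik (0.163), with a median of 0.751. For Klf6 they were 2310024N18Rik (0.105), B230369L08Rik (0.128) and Def6 (0.132), with a median of 0.701. The 12 arrays share 4 conditions, so these distances describe likeness over conditions and replicates together.

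**Figure D4:**
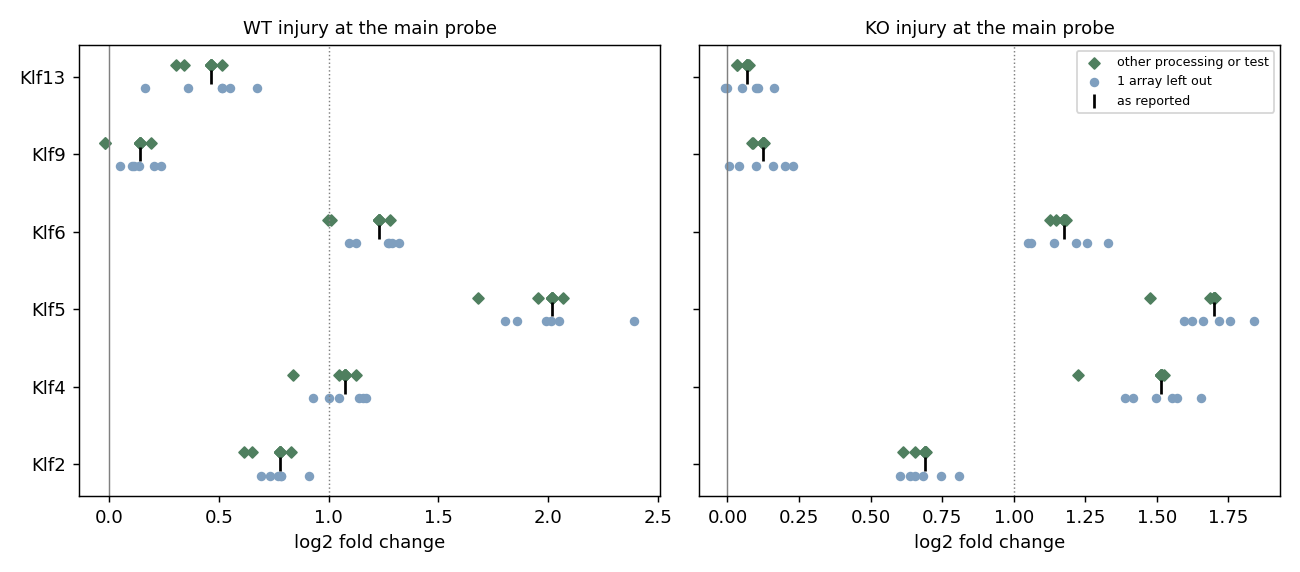
Log2 fold change of injured against control (horizontal axis) at the brightest probe of each member in WT (left) and Mapk9 KO (right). Black ticks give the reported value, green diamonds other processing or tests with no array left out, and blue circles fits with 1 array left out. Klf5 stays to the right of the dotted 2-fold line throughout, whereas Klf4 crosses it in WT and Klf6 falls just short of it under 1 alternative.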

How the data were processed

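RNA from 12 pools of murine hip cartilage was labelled with biotin and hybridised to Illumina mouse BeadChips. The authors deposited non-normalized signal intensities for 45281 probes, and beside each a deposited detection p-value, which moves in steps of 1 in 936 with the negative controls brighter than the probe. The authors used negative control probes to remove background and vsn to normalize, and the deposited log2 values cover 21004 probes. The versions of vsn and R they used are not given in the sources used here. Samples were grouped by the genotype and condition in their labels, and 0 columns of per-sample values lacked a sample.

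The deposited log2 values of every table probe were fitted with limma 3.58.1 (R 4.3.3), and p-values were adjusted by Benjamini-Hochberg over all of them. WT injury, Mapk9 KO injury and both genotype comparisons used only their own 6 arrays, and the interaction and the average used 12. A gene was called where at least 1 probe changed by more than 2-fold at an adjusted p under 0.05 (for the interaction, adjusted p alone). Fits were tested on simulated data. Sequences and figures were handled in Python 3.11.15 with pandas 2.3.3 and matplotlib 3.10.9. Replicates are separate pools by the methods. The labels share replicate numbers across groups. Deviations from group means correlated at 0.153 to 0.390 for same-numbered arrays (18 pairs) and at -0.289 to 0.0825 for others (36 pairs). Same-numbered arrays were thus more alike, although these ranges are not independent, because deviations cancel within a group. Paired samples and arrays that were handled together cannot be told apart here. The replicate number was used as a block in an alternative fit.

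The text names all probes of the 8 genes, Mapk9, of each further gene list at most 3 genes with the largest change among those called in WT, and 3 genes of closest profile for each member called in the average. A gene of the list of targets is not reported here. The members and lists were chosen with earlier results of these data known. The brightest probe by mean over 12 arrays led a gene. Where a group had no array above background, a bound was taken against the lowest signal detected on each of its arrays, or the probe itself where higher. Alternatives were background correction and normalization (neqc with an offset of 16), quantile normalization without background correction, median scaling, removal of probes detected on fewer than 3 arrays, a fit to all 12 arrays, the replicate block, a block by the digit of the code in the labels, the methods' t-test, no fold limit, only the brightest probe, and fits that each leave an array out. Exact permutation of 3 against 3 arrays cannot give a two-sided p below 0.1 and was not used.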

Additional observations from a re-analysis of the deposited data

How the results depend on the processing

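The number of members called was 3 of 6 in WT and in Mapk9 KO under most alternatives. It was 2 in WT with the methods' t-test, which left Klf5 at an adjusted p of 0.0509, and 4 in WT, Mapk9 KO and their average without the fold limit, which added Klf2. In both genotype comparisons and in the interaction it was 0 under every alternative run. The replicate block left 3 called in WT (limma adjusted p = 0.00818 for Klf4, 0.0023 for Klf5 and 0.00339 for Klf6) and changed no other call of a member. With quantile normalization and no background correction, the brightest probes of Klf4 (0.84, limma adjusted p = 0.00176) and Klf6 (1.00, adjusted p = 0.000205) came below the fold limit in WT, and both genes were still called through other probes, for Klf6 through probe 2, which was detected on 1 of 3 control arrays of each genotype. Without WT control replicate 2 the brightest Klf4 probe had a change of 0.93. Over all alternatives the WT change of Klf5 ranged from 1.68 to 2.39, that of Klf6 from 1.00 to 1.32 and that of Klf2 from 0.61 to 0.91, with adjusted p of 0.00393 to 0.0602 for Klf2. Of 618 values of single members under the alternatives, 27 had the other sign and 0 of these were called. With neqc they were Klf9 in WT (-0.019) and the interactions of Klf2 (0.0049), Klf6 (0.14) and Klf9 (0.11), and with quantile normalization alone the same 4, at -0.019, 0.00047, 0.13 and 0.10. With the digit of the label code as a block, Klf13 turned to -0.0089 between genotypes in control hips. With an array left out, Klf13 in Mapk9 KO injury ranged from -0.0081 to 0.16, the genotype differences in control hips from -0.0033 to 0.59 for Klf5, -0.23 to 0.039 for Klf6 and -0.23 to 0.28 for Klf13, and that of Klf5 in injured hips from -0.21 to 0.034. The interactions then ranged from -0.22 to 0.032 for Klf2, -0.18 to 0.10 for Klf6 and -0.13 to 0.089 for Klf9. The cause was not tested. No level is given for Klf10 and Klf15, whose probes were not well above the negative controls.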
